A study of Mus musculus with 6 samples.

Results

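miR-322, miR-503 and miR-351 are microRNAs (miRNAs), short RNAs that pair with target mRNAs and repress them, and they are cut from neighboring hairpins on the mouse X chromosome. Each hairpin can give a mature strand from either side of its stem, the 5p and the 3p arm. The 6 arms (mmu-miR-322-5p, mmu-miR-322-3p, mmu-miR-503-5p, mmu-miR-503-3p, mmu-miR-351-5p and mmu-miR-351-3p) were taken by name from the 1915 mature miRNA names of the count table. All 6 were present on 1 row each, and all 6 passed the filter on low counts. Small RNA was sequenced from bone marrow cultures of endothelial progenitor cells (EPCs), which can give rise to the lining of blood vessels. The donors were male, young adult C57BL/6J mice that had inhaled either concentrated ambient fine particulate matter (CAP) or filtered air, with 3 libraries per group. All cells were taken after the exposure had ended and were cultured for 12 days according to the labels, while the study's methods give a shorter time. By the study's methods the 3 mice of a group shared 1 cage, and a cage effect therefore cannot be told apart from that of CAP. The column headers of the counts number some libraries otherwise than the sample titles, whose replicate numbers are used here. Values of a group are given below in the order of replicates 1, 2 and 3.

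miR-322 is the mouse form of human miR-424. A miRNA finds its targets mainly through its seed, bases 2 to 8 from the 5′ end, and miRNAs with the same seed can share targets. The miR-322 and miR-503 pair is known for slowing the cell cycle by repressing cyclins, among other targets, and it accumulates when muscle precursor cells differentiate. In human endothelial cells miR-424 is known as a hypoxia-responsive miRNA, and miR-503 as one that restrains angiogenesis in diabetes. miR-351 lies in the same cluster and carries the seed of the miR-125 family.

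The mature sequences are shown because the seeds set which other miRNAs each arm can be compared with. They are from RefSeq (GRCm38), which held all 6 arms, and are written 5′ to 3′ with the seed in capitals.
miR-322-5p: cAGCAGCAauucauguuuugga
miR-503-5p: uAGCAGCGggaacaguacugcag
miR-351-5p: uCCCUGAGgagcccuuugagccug
miR-322-3p: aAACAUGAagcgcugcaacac
miR-503-3p: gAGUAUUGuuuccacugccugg
miR-351-3p: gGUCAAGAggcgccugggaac
miR-16-5p: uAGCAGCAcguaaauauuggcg
miR-125b-5p: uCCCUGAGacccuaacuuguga
miR-322-5p has the same seed as miR-16-5p, the most abundant member of the miR-15/16 family. miR-503-5p shares an unbroken run of 6 bases with miR-322-5p from base 2 and differs from it at the last seed base (A8G, counted from 1 at the 5′ end, miR-322-5p first), and no other name in the table with a known sequence had its seed. miR-351-5p has the seed of miR-125b-5p and is identical to it at 10 of 22 positions.

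The hairpins lie on the minus strand of chromosome X in GRCm38, the assembly that mm10 denotes. miR-322 spans 53054255 to 53054349, miR-503 spans 53053984 to 53054054 and miR-351 spans 53053255 to 53053353. RefSeq places all 3 inside the long noncoding RNA gene C430049B03Rik (53053112 to 53057190), 200 bases apart for miR-322 and miR-503 and 630 bases apart for miR-503 and miR-351. miR-542 follows 3767 bases further downstream, and the miR-450 hairpins come after it, outside that gene model. The hairpins of miR-322 and miR-503 are shown with both arms in capitals, since the comparison of the arms below turns on them.
miR-322 hairpin: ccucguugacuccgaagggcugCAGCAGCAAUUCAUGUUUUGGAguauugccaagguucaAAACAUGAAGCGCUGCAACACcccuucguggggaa
miR-503 hairpin: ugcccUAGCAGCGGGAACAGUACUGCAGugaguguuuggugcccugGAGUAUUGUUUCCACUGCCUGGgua

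Libraries held 13831209 to 18107578 counts after 1 row was kept per name. CAP replicate 1 stood apart through liver-restricted miR-122-5p, at 24731 CPM (the count after all libraries are brought to the same total) against 75.0 to 277 CPM in the other libraries. Of the endothelial markers, miR-126a-3p was present at 749 to 4005 CPM. Of the 5 blood cell markers, miR-223-3p (24739 to 32064 CPM) and both miR-142a arms were more abundant than miR-126a-3p in every library. By contrast, miR-150-5p was scarce, at 8.51 to 17.8 CPM, and miR-155-5p stood at 603 to 1126 CPM. The cultures were thus not purely endothelial by these markers. In a bulk sample, fewer cells of a type and less RNA per cell cannot be told apart.

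The first comparison asked whether any of the 6 arms differed between the CAP and air groups. All 6 had lower mean levels in CAP, and none passed the test over all miRNAs. The clearest difference was that of miR-322-3p, at 0.644 times its air level, followed by miR-503-5p at 0.740 times. The abundant guide strand miR-322-5p, miR-503-3p and both arms of miR-351 overlapped between the groups. Levels of different miRNAs carry ligation bias, so that their order is approximate.

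miR-322-5p was the most abundant of the arms, ranked 60 of 677 miRNAs by mean level, and it held 75.4% of the counts of the 6 arms. The air libraries had 1993, 2166 and 2364 CPM of it, and the CAP libraries 1982, 1580 and 2070 CPM. CAP replicate 2 was the lowest of all libraries, and the other CAP libraries lay within or just below the air range. The log2 fold change was −0.21 with a standard error of 0.13 (95% interval −0.52 to 0.10, adjusted p = 0.390 by edgeR's quasi-likelihood test with Benjamini–Hochberg adjustment over 677 miRNAs).

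miR-322-3p, the strand usually less used, stood at 129, 126 and 153 CPM in the air libraries and at 93.1, 69.1 and 100 CPM in the CAP libraries. Every CAP library was below every air library. Its log2 fold change was −0.63 with a standard error of 0.16 (95% interval −1.02 to −0.25), with an edgeR adjusted p = 0.146 and an unadjusted p = 0.00579. DESeq2, the tool of the study, gave an adjusted p = 0.0358 for this arm, and the adjusted p ranged from 0.0358 to 0.340 over the alternatives tried. The study had itself called this arm lower from the same libraries, with a smaller adjusted p from DESeq2. It then chose the arm for quantitative PCR and reported it lower there too. The direction seen here is therefore not independent evidence.

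miR-503-5p stood at 232, 249 and 314 CPM in air and at 207, 177 and 205 CPM in CAP. The groups did not overlap here either, with the closest libraries being air replicate 1 and CAP replicate 1. Its log2 fold change was −0.43 with a standard error of 0.14 (95% interval −0.77 to −0.10, edgeR adjusted p = 0.162). The adjusted p ranged from 0.124 to 0.363 over the alternatives, and this arm passed none of them.

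miR-503-3p stood at 48.3, 46.2 and 60.8 CPM in air and at 44.4, 30.6 and 48.3 CPM in CAP. CAP replicate 2 again was lowest, while CAP replicate 3 lay within the air range. The log2 fold change was −0.33 with a standard error of 0.20 (95% interval −0.80 to 0.13, edgeR adjusted p = 0.365).

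miR-351-5p, whose targets can overlap with those of miR-125 by its seed, stood at 237, 253 and 342 CPM in air and at 221, 250 and 294 CPM in CAP. Air replicate 3 was the highest library and the remaining libraries interleaved. The log2 fold change was −0.12 with a standard error of 0.18 (95% interval −0.54 to 0.29, edgeR adjusted p = 0.690). Its sign turned without air replicate 3, to 0.0472, and under upper-quartile scaling, to 0.0297.

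miR-351-3p was the scarcest arm, with 100 to 154 counts per library. It stood at 6.70, 8.39 and 10.2 CPM in air and at 6.40, 6.09 and 7.40 CPM in CAP, where CAP replicate 3 lay above air replicate 1. The log2 fold change was −0.35 with a standard error of 0.20 (95% interval −0.82 to 0.13, edgeR adjusted p = 0.362).

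**Figure D1:**
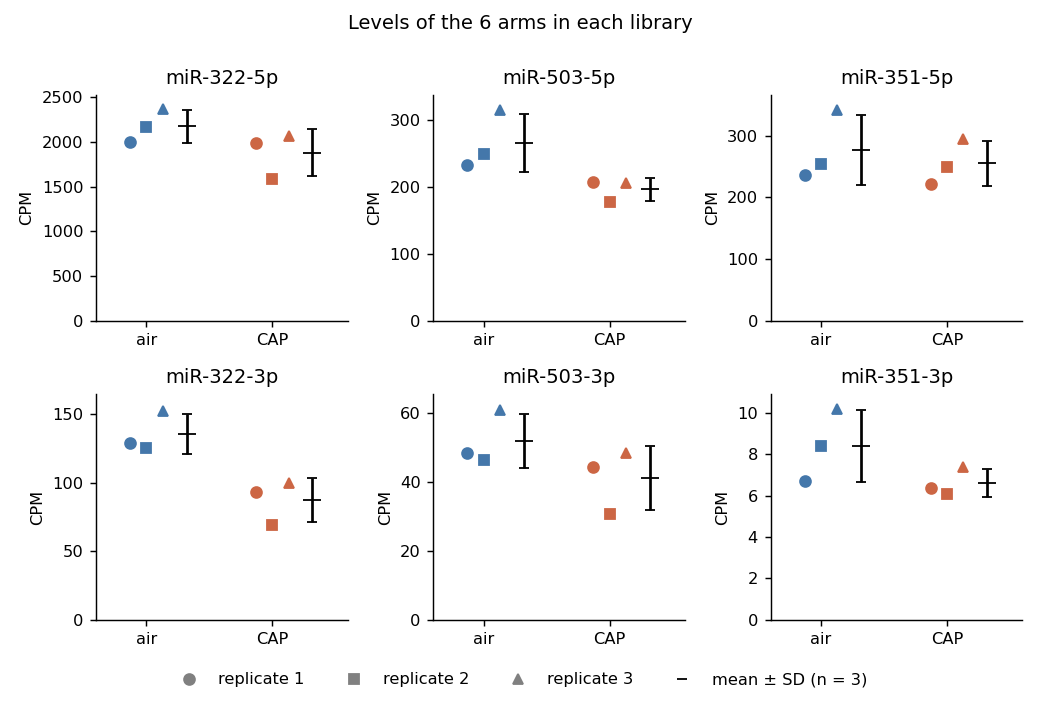
Levels of the 6 arms in CPM for the 3 air and 3 CAP libraries, 1 panel per arm, with points for libraries and bars for the mean and SD (n = 3). miR-322-3p and miR-503-5p did not overlap between the groups, and the other 4 arms did.

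Read against the whole table, 2 of the 6 arms, or 33.3%, were lower in CAP without overlap between the groups, while 14.3% of all miRNAs tested were lower without overlap and 29% were apart in either direction. The same 2 arms had an unadjusted p under 0.05, against 9.45% of all miRNAs lower at that threshold and 21% in either direction. By the adjusted threshold 0 of 6 arms passed edgeR, as did 0% of all miRNAs. DESeq2 passed 1 of them, against 4.25% of the 706 miRNAs it tested, or 2.27% when only those lower in CAP are counted. The median log2 fold change of the arms was −0.34, beside 0.00 over all 677 miRNAs, and was −0.20 without air replicate 3. All 6 arms lay below 0, as did 49.5% of all miRNAs. Under upper-quartile scaling the median of all miRNAs moved to 0.15 and that of the arms to −0.19, with 5 of 6 arms lower. Without CAP replicate 1, the library with the high miR-122-5p, the log2 fold changes were −0.30 for miR-322-5p, −0.73 for miR-322-3p, −0.53 for miR-503-5p, −0.44 for miR-503-3p, −0.08 for miR-351-5p and −0.38 for miR-351-3p, and none passed edgeR. The 6 arms come from 3 hairpins of 1 cluster and are not independent of each other.

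The order of the libraries was much alike across the arms. Air replicate 3 was the highest air library for all 6 arms. CAP replicate 2 was the lowest CAP library for 5 of the 6, miR-351-5p being the exception, and CAP replicate 3 was the highest CAP library for 5 of the 6. This order was not particular to the arms, as let-7b-5p, let-7c-5p, miR-101a-3p and miR-139-5p also had it. How common it was over all miRNAs was not counted. Summed markers of stromal and smooth muscle cells, a cell type that these cultures could hold, had a similar order. The summed level of their 6 miRNAs was 54401, 52972 and 65981 CPM in the air libraries, while the CAP libraries had 42107, 39301 and 57417 CPM. Of these, 5 of 6 were lower in CAP on average, and none was at 0. Singly, the lowest CAP library was replicate 2 for miR-199a-5p, miR-199a-3p and miR-214-3p. For miR-143-3p, miR-145a-5p and miR-145a-3p it was replicate 1. The part of these markers in the difference of the 6 arms was not tested.

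Of the endothelial markers, 2 of 2 had lower means in CAP. The summed level of the miR-126a arms was 2743, 1953 and 5120 CPM in the air libraries, while the CAP libraries had 3675, 947 and 1904 CPM. As for the summed stromal markers, air replicate 3 was the highest library and CAP replicate 2 the lowest, but the highest CAP library was replicate 1. The part of the endothelial markers in the difference of the arms was likewise not tested. Summed markers of blood cells lay between 57865 and 71457 CPM in air and between 60734 and 76285 CPM in CAP. Only 1 of these 5 markers had a lower mean in CAP.

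Downstream of the 3 hairpins, miR-542 and the miR-450 hairpins give 7 further arms. Of these, 6 were lower and 1 was higher in CAP, with a median log2 fold change of −0.36, and 0 passed edgeR in the fit reported. Under upper-quartile scaling 5 of the 7 were lower, with a median of −0.21, and 7 of 7 were lower without air replicate 1 or without CAP replicate 1. The 4 that did not overlap between the groups were all lower, or 57.1% of the 7, beside 14.3% of all miRNAs lower without overlap. The smallest p-values belonged to miR-450a-5p (log2 fold change −0.85, standard error 0.17), miR-450a-2-3p (−0.75 and 0.17) and miR-542-5p (−0.54 and 0.17). DESeq2 passed miR-450a-5p (adjusted p = 0.00216) and miR-450a-2-3p (adjusted p = 0.0402), where it passed 2.27% of all miRNAs as lower. miR-450a-5p also passed edgeR with no filter on low counts (adjusted p = 0.0379), where 13 of 1496 miRNAs passed in all. It passed edgeR's likelihood ratio test too (adjusted p = 0.0204), where 14 of 677 passed in all. The study had called both arms lower from the same libraries, so their direction here is not independent evidence. It also reported miR-450a-5p lower by quantitative PCR. miR-542-3p, the abundant strand of its hairpin, was singled out after its values were seen, with air at 237 ± 24.1 CPM, CAP at 233 ± 46.5 CPM (SD, n = 3) and a log2 fold change of −0.03.

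**Figure D2:**
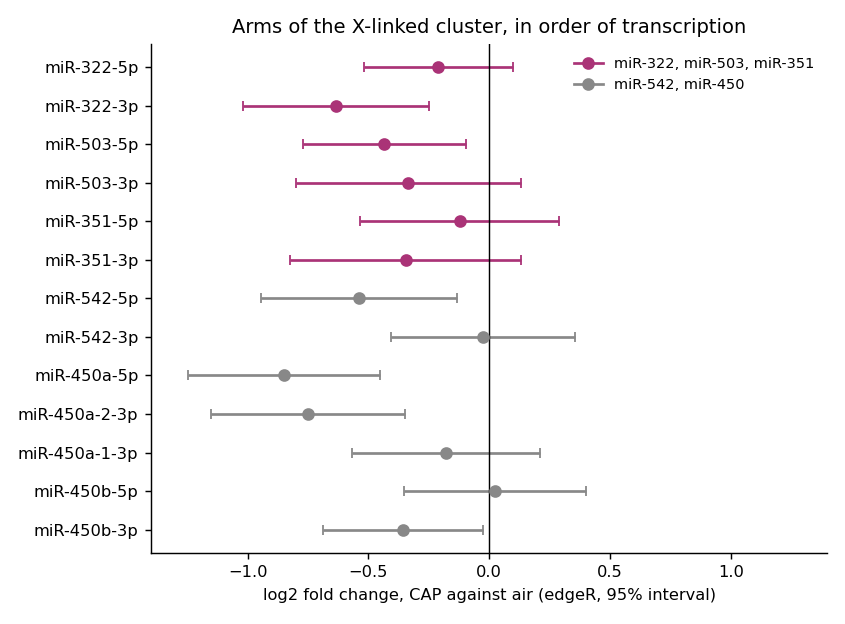
The log2 fold change of each arm, CAP against air, with its 95% interval from edgeR, in order of transcription from miR-322 at the top to miR-450b at the bottom. The 6 arms of miR-322, miR-503 and miR-351 lie between −0.63 and −0.12, and miR-450a-5p has the lowest value of the cluster, at −0.85.

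The second comparison set the arms of each hairpin against each other within a library, a ratio that no scaling between libraries can change. Only miR-322 differed without overlap. Its 5p arm gave 15.4, 17.2 and 15.5 counts per 3p count in the air libraries and 21.3, 22.9 and 20.7 in the CAP libraries. The lowest CAP library was thus above the highest air library. The means were 16.1 ± 1.03 in air and 21.6 ± 1.12 in CAP (SD, n = 3), a 1.35-fold higher ratio in CAP, and the exact two-sided permutation p = 0.1 was the smallest that 3 against 3 libraries allow (adjusted p = 0.3 over the 3 hairpins). The 5p arm was the more abundant strand of miR-322 in all 6 libraries. The ratio is built from the same counts of miR-322-5p and miR-322-3p, so it is not independent of the lower miR-322-3p reported above.

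For miR-503 the ratio was 4.81, 5.39 and 5.17 in air and 4.66, 5.78 and 4.26 in CAP. The CAP libraries enclosed the air libraries, and the log2 difference was −0.08 (exact permutation p = 0.6), turning to 0.0193 without CAP replicate 3. miR-351 was the most one-sided hairpin, with 35.3, 30.2 and 33.6 counts of 5p per count of 3p in air and 34.5, 41.0 and 39.7 in CAP. Its CAP libraries reached higher but CAP replicate 1 lay within the air range, and the log2 difference was 0.21 (exact permutation p = 0.2).

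**Figure D3:**
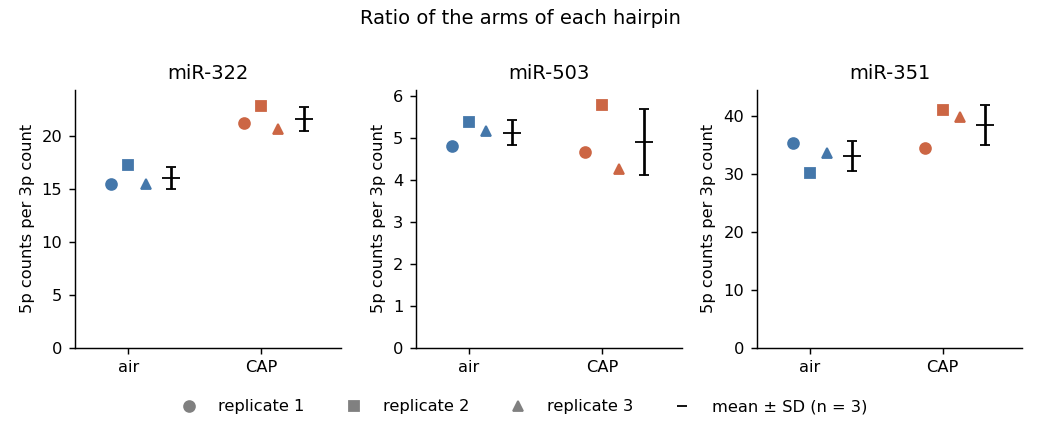
Counts of the 5p arm per count of the 3p arm for miR-322, miR-503 and miR-351 in each library, with the mean and SD (n = 3). For miR-322 the CAP libraries lie between 20.7 and 22.9, above the air libraries at 15.4 to 17.2, while the groups overlap for miR-503 and miR-351.

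To read the ratio of miR-322 against other hairpins, the same log2 ratio was fitted with limma for the 185 hairpins whose arms both passed the filter and had 1 row each. This fit was added after the data had been seen. The difference of miR-322 was 0.43 with a standard error of 0.09 (95% interval 0.22 to 0.63, limma adjusted p = 0.0165 over the 185 hairpins). Such changes were not rare: limma passed 14.1% of the hairpins, 17 with a higher and 9 with a lower ratio in CAP, 36.2% were without overlap between the groups, 21.6% with a higher ratio, and 53% had a higher mean ratio in CAP. There were 62 hairpins with a larger difference than that of miR-322 in either direction. Without air replicates 1, 2 and 3 the limma adjusted p of miR-322 was 0.0806, 0.0637 and 0.0653, so that the call was lost each time, and without CAP replicates 1, 2 and 3 it was 0.0184, 0.0259 and 0.0255.

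By the same fit, miR-503 had a limma adjusted p = 0.735 and a 95% interval of −0.36 to 0.21, and miR-351 had 0.367 with an interval of −0.14 to 0.57. Differences of the size seen for miR-322 lie within the interval of miR-351 and outside that of miR-503. In the neighboring miR-542 hairpin the ratio moved the other way, with a log2 difference of −0.52 (limma adjusted p = 0.0242), the 5p arm being the scarce strand there. For miR-450b, whose 5p arm was the scarcer strand in every library but CAP replicate 2, the log2 difference was 0.36 (limma adjusted p = 0.231).

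**Figure D4:**
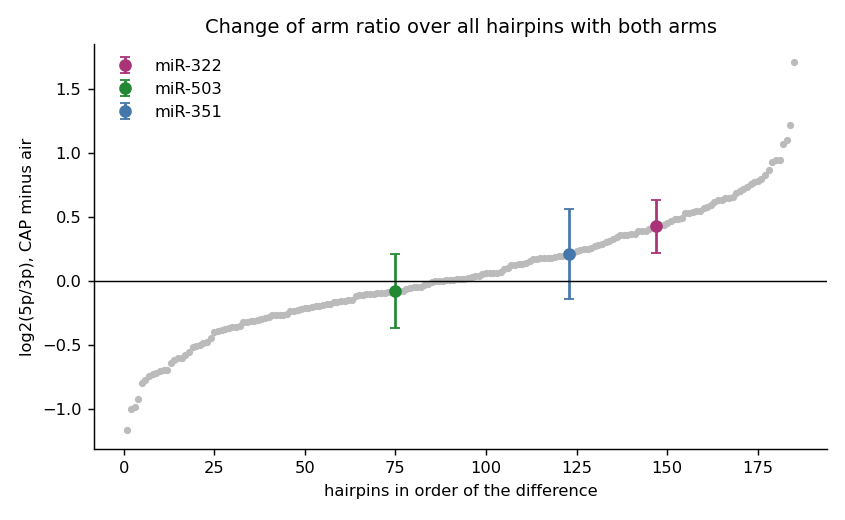
Difference of log2(5p/3p) between CAP and air for 185 hairpins in rising order (gray points), with miR-322, miR-503 and miR-351 in color and their 95% intervals from limma. The interval of miR-322 lies above 0 at 0.22 to 0.63, and those of miR-503 and miR-351 include 0.

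The third comparison asked whether the 3 hairpins kept their proportions to each other, again within each library. miR-503-5p gave 0.117, 0.115 and 0.133 counts per count of miR-322-5p in air and 0.104, 0.112 and 0.0992 in CAP. The groups did not overlap, though CAP replicate 2 came close to air replicate 2, and the ratio in CAP was 0.866 times that in air (exact two-sided permutation p = 0.1, the smallest possible, adjusted p = 0.3 over 3 ratios). miR-351-5p per count of miR-322-5p was 0.119, 0.117 and 0.145 in air and 0.111, 0.158 and 0.142 in CAP, which overlapped (exact permutation p = 0.7), and the sign of the difference turned without CAP replicate 2.

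miR-351-5p and miR-503-5p were nearly level with each other in air, at 1.02, 1.02 and 1.09 counts of miR-351-5p per count of miR-503-5p. In CAP this ratio was 1.07 in replicate 1 but 1.41 and 1.43 in replicates 2 and 3. Of the CAP libraries only replicate 1 lay within the air range, and the exact permutation p was 0.2.

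The fourth comparison placed the arms within their seed families. Besides miR-322-5p, 9 names in the table had the seed AGCAGCA, and 7 of the 10 had counts. miR-322-5p gave 3.47, 3.44 and 3.92% of the family's counts in air and 2.95, 2.09 and 2.97% in CAP, each known to within 0.0398 percentage points by its 95% Wilson interval, for counting error only. All CAP shares were below all air shares, with means of 3.61 ± 0.267% and 2.67 ± 0.504% (SD, n = 3, exact two-sided permutation p = 0.1, the smallest possible). The difference of −0.94 percentage points became −0.52 when the rows of 1 name were summed, as for the 2 loci of miR-16-5p. The family as a whole was higher in CAP, at 70809 ± 4370 CPM against 60236 ± 2758 CPM, again without overlap (exact permutation p = 0.1, n = 3). By level, 29% of all miRNAs tested were apart in either direction.

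Most of the family's level was that of miR-16-5p, a repressor of cyclins and of the survival factor Bcl2, with means of 52357 ± 2297 CPM for air and 63620 ± 4644 CPM for CAP (SD, n = 3). Its log2 fold change was 0.28 with a standard error of 0.07 (edgeR adjusted p = 0.146). miR-15b-5p, cut from the same transcript as one copy of miR-16, had −0.03 and miR-15a-5p, which accompanies the other copy, −0.14. The less abundant miR-497a-5p had −0.41 with a standard error of 0.28, at 123.9, 149 and 166 CPM in air and 126.0, 64.1 and 140 CPM in CAP. miR-195a-5p, from the same transcript as miR-497a, had −0.51 with a standard error of 0.25, at 120, 122 and 157 CPM in air and 110, 60.2 and 111 CPM in CAP. For miR-322-5p, miR-497a-5p and miR-195a-5p alike, CAP replicate 2 was the lowest library and air replicate 3 the highest.

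miR-351-5p was a minor part of the reads with the miR-125 seed. It gave 0.179, 0.197 and 0.239% of them in air and 0.193, 0.177 and 0.173% in CAP, each known to within 0.0065 percentage points (95% Wilson interval). The groups overlapped (exact permutation p = 0.2), and the difference of −0.0242 percentage points was −0.00724 without air replicate 3 and −0.0128 when the rows of 1 name were summed. miR-125b-5p, one of the most abundant miRNAs of the cultures, stood at 124807 ± 6715 CPM in air and 132241 ± 26354 CPM in CAP, and miR-125a-5p at 9506 ± 849 CPM and 9354 ± 1343 CPM (SD, n = 3).

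**Figure D5:**
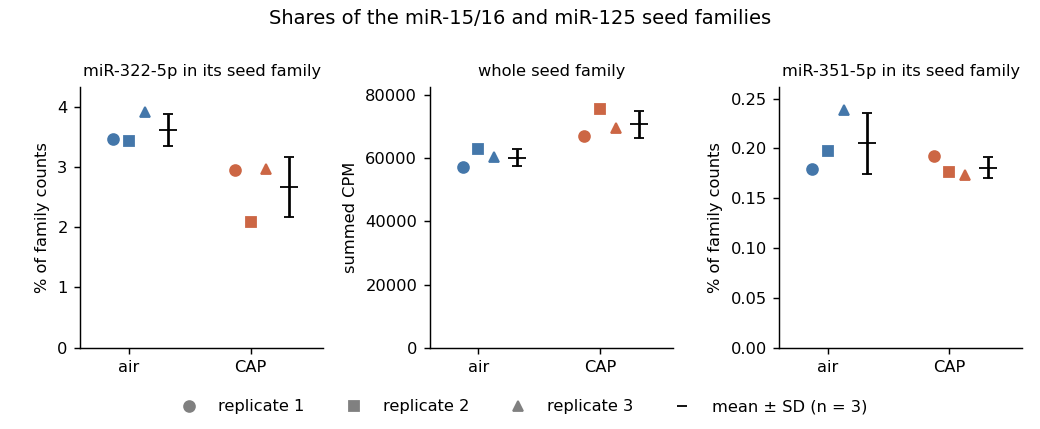
Share of miR-322-5p in the counts of its seed family (left), summed level of that family in CPM (middle) and share of miR-351-5p in the miR-125 seed family (right), by library with the mean and SD (n = 3). The miR-322-5p share is 3.44 to 3.92% in air and 2.09 to 2.97% in CAP, while the miR-351-5p shares overlap.

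Together the 6 arms held 0.277, 0.286 and 0.316% of all counts in the air libraries and 0.256, 0.211 and 0.266% in the CAP libraries, each known to within 0.00279 percentage points (95% Wilson interval). The CAP libraries were all lower, with means of 0.293 ± 0.0201% and 0.244 ± 0.0296% (SD, n = 3, exact two-sided permutation p = 0.1, the smallest possible). The difference of −0.0485 percentage points was −0.0317 without CAP replicate 2 (exact permutation p = 0.2).

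The miRNAs outside the cluster whose pattern over the 6 libraries came nearest to each abundant arm were also looked up, as a description. The measure was the root mean square difference of log2 CPM, each miRNA centered on its own mean, among 346 miRNAs with at least 10 CPM. Nearest to miR-322-5p were miR-101a-3p (0.0458), miR-139-5p (0.0472) and let-7b-5p (0.0652), against a median of 0.26 over all candidates. Nearest to miR-503-5p were miR-26a-5p (0.0318), miR-181a-5p (0.0943) and miR-34b-3p (0.106). Nearest to miR-351-5p were miR-674-5p (0.107), its seed relative miR-125a-5p (0.109) and miR-296-5p (0.110). By the same measure the abundant arms differed by 0.133 between miR-322-5p and miR-503-5p and by 0.186 between miR-322-5p and miR-351-5p, and the arms of miR-322 by 0.224. Arms of the cluster, which that search left out, ranged widely. From miR-322-5p they lay between 0.0816 (miR-450b-3p) and 0.336 (miR-450a-5p). The range was 0.0635 (miR-450b-3p) to 0.338 (miR-450b-5p) from miR-503-5p, and 0.132 (miR-542-3p) to 0.458 (miR-450a-5p) from miR-351-5p.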

How the data were processed

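Small RNA was measured in 6 libraries, 3 of them air and 3 CAP by their titles. In the study, QIAseq miRNA libraries were run on a NextSeq 500, trimmed with Trimmomatic, mapped to mm10 with mirDeep2 and bowtie and quantified against miRBase. The deposited values are the authors' raw read counts per pair of mature miRNA and precursor, in 2061 rows, and collapsing by molecular identifiers is not given in the sources used here. Wilson intervals of shares cover counting error only, while those of edgeR and limma rest on the spread between libraries. For 83 names with several rows only the most abundant row was used. Each arm reported here had 1 row.

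Counts were tested with edgeR 4.0.16 (R 4.3.3), using its default filter on low counts, TMM scaling, a quasi-likelihood fit on the group and an adjusted p of at most 0.05 as the threshold. Arm ratios used a pseudocount of 0.5 in tests and exact two-sided permutation over libraries, with limma 3.58.1 over all hairpins added later. DESeq2 1.42.0, limma-voom, other scalings, filters and row choices, a replicate block and each library left out were alternatives. Scripts were tested on simulated counts. The members and lists were chosen with earlier results of these data known. Named miRNAs were the 6 arms, the neighbors with the 3 smallest p, up to 5 names per seed family and the 3 nearest patterns per abundant arm. Sequences were matched by name in RefSeq (1623 of 1915 names). Replicates differed by more than sampling noise (chi-square per degree of freedom 42.4 to 571) and came from mice of 1 cage per group. The edgeR, DESeq2 and limma p-values set the group difference against the spread between libraries. Permutation p-values rank it among all ways of splitting the libraries into groups. None of them covers a difference between cages. Figures were drawn with matplotlib 3.10.9.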

Additional observations from a re-analysis of the deposited data

How the results depend on the processing

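The number of miRNAs called was 0 of 677 with edgeR's quasi-likelihood test (142 at an unadjusted p under 0.05) and 13 of 1496 with no filter on low counts. It was 14 of 677 with edgeR's likelihood ratio test, 30 of 706 with DESeq2 and 0 in each fit without 1 library. miR-322-3p passed DESeq2, with a log2 fold change of −0.65, and none of the other 17 alternatives. miR-351-5p reversed to 0.0297 under upper-quartile scaling and to 0.0472 without air replicate 3. Leaving out 1 library gave ranges of −0.31 to −0.12 for miR-322-5p, −0.76 to −0.51 for miR-322-3p, −0.55 to −0.30 for miR-503-5p, −0.49 to −0.18 for miR-503-3p, −0.26 to 0.0472 for miR-351-5p and −0.51 to −0.20 for miR-351-3p, and the cause was not tested. The median of the arms less that of all miRNAs was −0.34 in the fit reported and between −0.46 and −0.19 without 1 library.

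The miR-322 arm ratio difference was 0.39 to 0.48 without 1 library and 0.43 with limma over all hairpins, where it passed, and it stayed a call without each CAP library, at 0.44, 0.39 and 0.46. That of miR-503 ranged from −0.20 to 0.0193 and reversed without CAP replicate 3, also with limma at 0.0193, and that of miR-351 from 0.15 to 0.29. Without 1 library, the difference in share was −1.09 to −0.65 percentage points for miR-322-5p in its seed family, −0.0371 to −0.00724 for miR-351-5p in its own and −0.0595 to −0.0317 for the 6 arms in all counts. The ratio of miR-351-5p to miR-322-5p ranged from −0.00511 to 0.25 and reversed without CAP replicate 2. With the replicate number as a block, edgeR called 0 miRNAs, and the log2 fold change was −0.65 for miR-322-3p, −0.43 for miR-503-5p and −0.22 for miR-322-5p, with no call changed. The numbers did not pair the libraries, as deviations of same-numbered libraries correlated at 0.0207, −0.022 and 0.142.

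The scarcest arm, miR-351-3p, rested on 100 to 154 counts per library, which limits its precision.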
